A study of Homo sapiens with 20 samples.

Results

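The clustered protocadherins are cell surface adhesion proteins encoded by 3 neighbouring gene clusters, alpha, beta and gamma, on human chromosome 5. The members were all protein-coding genes whose symbol is PCDHA, PCDHB, PCDHGA, PCDHGB or PCDHGC followed by digits. There were 51 of them among the 57087 genes with a transcript in the files: 13 alpha, 16 beta and 22 gamma members. On GRCh38 they lie between positions 140786136 and 141512977 of chromosome 5, a stretch of 727 kb, all on the plus strand.

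Each alpha and gamma member has a promoter and a large variable exon of its own, which encodes the extracellular part of the protein, and is spliced to constant exons shared by its whole cluster. Beta members consist of a single large exon. In neurons each cell uses only some of the promoters, and the set of protocadherins on its surface lets it tell its own branches from those of other cells. Promoter choice involves the insulator protein CTCF, which binds a conserved sequence element in most of these promoters, and cohesin, which loops promoters to distant enhancers. DNA methylation of a promoter keeps its gene silent.

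The study asked how Dicer-dependent small RNAs act on genes in human embryonic kidney cell lines. Messenger RNA (mRNA-seq) was measured in 3 wt samples, labelled HEK293T, and in 3 shDicer samples, labelled HEK293 2B, which carry an shRNA against Dicer, the enzyme that cuts small RNAs from double-stranded precursors. Both groups received 3 µg/ml doxycycline for 7 days per the labels. Chromatin-associated RNA (chrRNA-seq) was measured in 2 wt, 2 shDicer, 2 shAgo2 and 2 DroshaKD samples, all labelled HEK293. Ago2 is the protein that small RNAs guide to their targets, and Drosha makes the first cut in microRNA precursors. The shDicer and shAgo2 cells are separate inducible lines given 3 µg/ml doxycycline for 72 h, while DroshaKD cells were transfected with plasmids that carry an shRNA. Whether the wt and DroshaKD cells of chrRNA-seq received doxycycline is not given in the sources used here. The study's methods name HEK293T as the wild type and inducible HEK293T-REx lines, among them 1 with TAP-tagged Dicer beside the shRNA against Dicer. Whether the shDicer samples carry that tagged protein is not given in the sources used here. In shDicer and shAgo2 the cell line and the knockdown change together and cannot be told apart.

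The total of estimated counts was between 10216430 and 17215978 per mRNA-seq sample and between 17484067 and 21553760 per chrRNA-seq sample. Log2 fold changes are given ± SE with adjusted p-values of edgeR's quasi-likelihood test (n = 3 per group in mRNA-seq and n = 2 in chrRNA-seq). Levels are given as CPM, the count of a gene scaled to the normalized total of the tested genes of its sample. DICER1 fell in shDicer mRNA (log2 fold change −1.49 ± 0.08, adjusted p = 1.28e-07). In chromatin RNA it did not pass in the samples labelled shDicer (−0.18 ± 0.09, adjusted p = 0.166) and was higher in shAgo2 (0.78 ± 0.09, adjusted p = 3.59e-05), where AGO2 fell (−0.62 ± 0.08, adjusted p = 9.29e-05). DROSHA did not pass in the samples labelled DroshaKD (0.07 ± 0.08, adjusted p = 0.697). These are levels of chromatin RNA. The study checked its knockdowns by other measures. It used quantitative PCR of steady-state RNA from the chrRNA-seq samples, and it reports successful knockdown of Dicer, Drosha and Ago2 by western blot. All 8 markers of the line, such as VIM and KRT8, reached 3 counts in at least 1 sample of every group, and their sum was between 632 and 719 CPM in wt mRNA, and between 1253 and 1642 in shDicer mRNA. In chromatin RNA the wt sums were between 621 and 683 CPM. They were between 479 and 639 in shDicer, with 492 to 542 in shAgo2 and 364 to 467 in DroshaKD. In shDicer 6 line markers were higher than in wt and 2 (NEFM and VIM) lower, in shAgo2 4 and the same 2, and in DroshaKD 0 and again these 2. The 10 neuronal markers summed to between 10.4 and 13.7 CPM in mRNA-seq. In chromatin RNA their sum was between 50.2 and 51.8 CPM in wt and between 46.3 and 46.9 in DroshaKD, lower in shDicer (45.7 to 47.4) than in wt and higher in shAgo2 (62.01 to 63.9). STMN2 was under 3 counts in every sample of wt, shDicer and shAgo2. In shAgo2, 3 of 8 tested neuronal markers were higher than in wt (MAP2, SNAP25 and SYT1) and 2 lower. The 6 fibroblast markers summed to between 34.5 and 35.2 CPM in wt chromatin RNA and between 32.01 and 37.2 in DroshaKD, with higher sums in shDicer (39.4 to 40.4) and shAgo2 (46.6 to 50.2), where COL1A1 passed. LUM was under 3 counts in every chrRNA-seq sample. The part of these markers in the results on protocadherins was not tested.

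Promoter sequences of 45 of the 51 members were found in RefSeq (GRCh38.p14), each from 250 bases before the start of the gene to 50 bases after it. PCDHGB5 had the largest log2 fold change of all tested members in every comparison of shDicer or shAgo2 with wt, and its promoter, chr5:141397697-141397996 on the plus strand, is shown whole for that reason. The capitals mark the letters CGCT nearest to 60 bases before the start, and further matches to these letters are left in lower case.
PCDHGB5 promoter: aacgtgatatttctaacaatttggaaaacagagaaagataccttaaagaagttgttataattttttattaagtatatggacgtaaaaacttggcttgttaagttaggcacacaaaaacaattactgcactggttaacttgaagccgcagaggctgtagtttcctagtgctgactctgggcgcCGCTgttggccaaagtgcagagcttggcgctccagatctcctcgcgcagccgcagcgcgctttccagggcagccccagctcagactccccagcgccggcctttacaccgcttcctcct

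The letters CGCT, on either strand, were in 44 of the 45 member promoters and in 69.4% of all 27305 promoters of that length. CGCTG, which contains CGCT, was in 39 of 45 and in 47.8% of all. CCGCTG, which contains both, was in 13 of 20 gamma, 1 of 14 beta and 0 of 11 alpha promoters and in 22.4% of all. The TATA box letters TATAAA were in 6 of 45 member promoters and in 11.95% of all. A match is a description of the letters and not a site. Below, 28 bases around the CGCT nearest to 60 bases before the start are shown, on the plus strand, for members whose RNA differed in response: PCDHGB5, PCDHGA9 and PCDHGA10, higher in both shDicer and shAgo2, PCDHGB1 and PCDHB2, lower in shDicer than in shAgo2, and PCDHGA1, PCDHGA8 and PCDHA4, which passed in no chrRNA-seq comparison. PCDHGB4 is added because its letters equal those of PCDHGB5.
PCDHGB5 (chr5:141397867-141397894): gactctgggcgcCGCTgttggccaaagt
PCDHGB4 (chr5:141387621-141387648): gactctgggcgcCGCTgttggccaaagt
PCDHGA9 (chr5:141402718-141402745): gactctgagcgcCGCTgttgatcaactc
PCDHGA10 (chr5:141412935-141412962): gactctgagcgcCGCTgttcacctacta
PCDHGB1 (chr5:141350029-141350056): acctctgggcgcCGCTgtcgaccaaaag
PCDHGA1 (chr5:141330407-141330434): gactgtgggcgcCGCTgttcactaatct
PCDHGA8 (chr5:141392572-141392599): gactgtaagcgcCGCTgttcacctactg
PCDHB2 (chr5:141094548-141094575): gacgcggggtggCGCTgcagccttagaa
PCDHA4 (chr5:140806983-140807010): gccacatgatgtCGCTctttaccacaaa

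A median of 20.5 of the 28 bases equalled PCDHGB5 over 20 gamma windows, PCDHGB5 itself included, against 16.5 over 14 beta and 14.5 over 10 alpha windows. PCDHGB6 and PCDHGB7, with 10 equal bases, and PCDHGC3, with 11, lay below every alpha and beta window, of which the lowest had 12. The windows were chosen by position and not aligned. Their CGCT lay between −3 (beta) and 199 (gamma) bases before the start, a negative value being after it. Matches were counted on the plus strand and only where the whole window of 28 bases lay inside the promoter. By this count PCDHGB5 held 3, PCDHGB6 2, PCDHGB7 1 and PCDHGC3 5. The PCDHGB5 promoter shown above holds a further match near its end, which this count leaves out. So few equal bases do not show that promoters differ more as a whole. PCDHGA1, which passed in no comparison, shared 22 bases with PCDHGB5, as did PCDHGA9, which rose. PCDHGB4 shared all 28, and its RNA did not pass in shDicer, as described below.

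The members share sequence, and this bears on every value. The 22 gamma members end in the same 3 constant exons, the largest at positions 141510947 to 141512975, and 15 genes of the alpha cluster (the 13 members with PCDHAC1 and PCDHAC2) share 3 others, the largest at 141009627 to 141012347. Reads from constant exons cannot be assigned to a member by sequence, and kallisto divided them. Most counts lay elsewhere. In chromatin RNA between 76.1 and 81.2% of gamma counts and between 99.1 and 99.9% of alpha counts were on single-exon transcripts, which hold the variable exon.

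The gamma genes are also nested. The gene body of PCDHGB5, from 141397947 to 141512975 (115 kb), holds the starts of 9 other members and of 2 pseudogenes on the same strand. In chromatin RNA, transcripts that start at PCDHGB5 and are not yet spliced would cross the variable exons of these members, so RNA from their own promoters and RNA read through from upstream cannot be told apart in these counts. Repeated sequence bears on some levels as well. Of the 31-base words of the main transcript, 7.69% in PCDHA4, 8.94% in PCDHB1 and 14.1% in PCDHB11 occur 10 or more times in the genome, and none do in PCDHGB5. Among the 7 members with no word that frequent, PCDHGB5 included, 4 were higher in shDicer and 6 in shAgo2 chromatin RNA. Among the 44 members with some, of which 33 were tested, these counts were 5 and 16. Over all genes 11.0% were higher in shDicer and 12.5% in shAgo2. All 7 members without such words are gamma members, and every alpha and beta member is among the 44. Repeat content and cluster therefore cannot be told apart in these counts. Of the main PCDHGB5 transcript's words 25.2% also occur in transcripts of other genes, so part of its reads could be divided with them. None of those of the main PCDHGC3 transcript do, but it held 59.5% of the chrRNA-seq counts of PCDHGC3. Of the words of the longest PCDHGC3 transcript, spliced to the constant exons, 45.5% do.

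Levels in wt cells were low. In mRNA-seq 8 of 51 members had 3 or more counts in every wt sample and 27 were under 3 counts in every wt sample, a limit between 0.240 and 0.311 CPM that covers counting error only. In shDicer mRNA 22 members had 3 or more counts in every sample and 11 were under 3 in every sample. In chromatin RNA 37 members had 3 or more counts in every wt sample, against 39 in shDicer, 40 in DroshaKD and 48 in shAgo2. For the gamma cluster it was 21 of 22 in wt and 22 of 22 in each knockdown. These numbers of members are not adjusted for depth. The wt totals were at most 13183577 counts in mRNA-seq, against at least 13717750 in shDicer. In chrRNA-seq they were at most 18222946, against at least 18690158 in the knockdowns. How far depth set these numbers was not tested.

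Per length, PCDHGC3, a C-type gamma gene, had the highest level in wt chromatin RNA, at 8.39 ± 0.176 TPM (transcript level adjusted for length, SD, n = 2). This value sums all its transcripts, including short transcripts of 632 bases (32.7 and 30.6 estimated counts in wt) and 795 bases (31.2 and 25.5). A count on a short transcript adds more TPM than a count on a longer transcript. How far this set the rank of PCDHGC3 was not tested. PCDHA4 followed at 4.19 ± 0.0116 TPM, then PCDHGC4 at 2.63 ± 0.148 TPM, PCDHGA11 at 2.16 ± 0.0274 TPM and PCDHB1 at 2.05 ± 0.165 TPM. PCDHGA11 and PCDHB1 did not differ beyond their spread. PCDHGB5 was at 0.115 ± 0.0446 TPM in wt and 0.146 ± 0.0229 TPM in DroshaKD, against 5.12 ± 0.642 TPM in shDicer and 6.02 ± 0.312 TPM in shAgo2. In shDicer and shAgo2 it was second among all members per length, after PCDHGC3 at 16.7 ± 0.851 TPM and 23.2 ± 0.137 TPM.

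**Figure D1:**
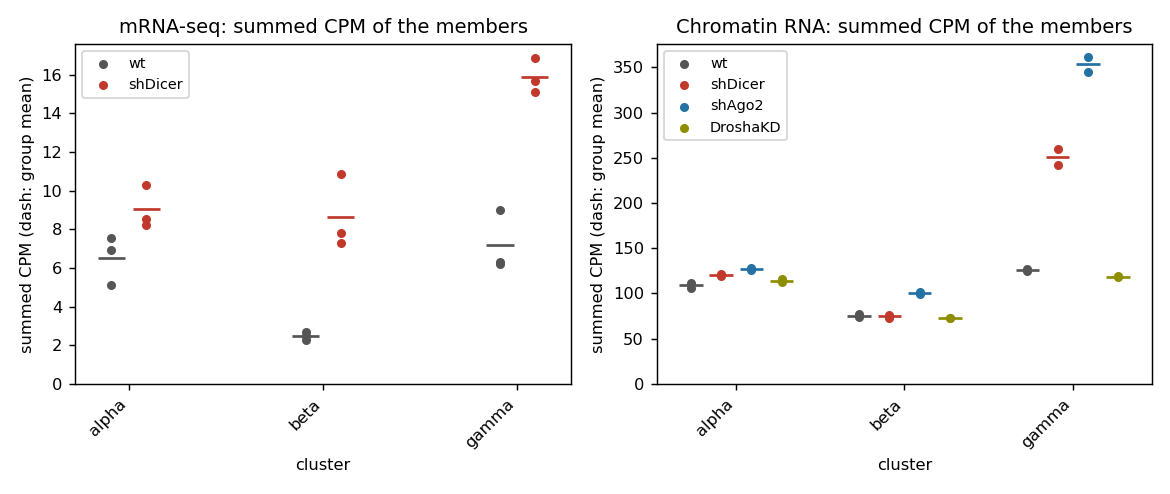
Summed CPM of the members of each cluster in every mRNA-seq (left) and chrRNA-seq (right) sample, with a dash at each group mean. The gamma sum was between 124 and 127 CPM in wt chromatin RNA, between 242 and 260 in shDicer and between 345 and 362 in shAgo2, while the alpha and beta sums differed less.

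The gamma sum, which does not depend on how reads of the constant exons were divided among the gamma members, differed most from wt in chromatin RNA. The gamma sum was 125 ± 1.67 CPM in wt (SD, n = 2) against 251 ± 12.5 in shDicer, 353 ± 11.5 in shAgo2 and 119 ± 0.531 in DroshaKD. The shDicer and shAgo2 samples lay above both wt samples, at 2.00 and 2.82 times the wt mean, and the DroshaKD samples below them, at 0.945 times. The alpha sum was 109 ± 3.51 CPM in wt against 120.2 ± 1.56 in shDicer, 127 ± 1.56 in shAgo2 and 114 ± 2.46 in DroshaKD. It depends on how constant-exon reads were divided between the members and PCDHAC1 with PCDHAC2, whose own sum was 2.91 ± 0.0863 CPM in wt. Their sum was 13.3 ± 1.03 CPM in shDicer, with 6.76 ± 0.526 in shAgo2 and 4.15 ± 0.0218 in DroshaKD. The beta sum was 75.4 ± 2.74, 74.9 ± 2.55, 100.1 ± 1.42 and 72.5 ± 0.273 CPM. These sums carry no test. In bulk RNA, more cells that express a gene and more RNA per cell cannot be told apart.

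In mRNA-seq the beta sum was 2.46 ± 0.200 CPM in wt and 8.64 ± 1.93 in shDicer (SD, n = 3), 3.51 times the wt mean. The gamma sum was 7.19 ± 1.58 and 15.9 ± 0.888 CPM (2.21 times), and the alpha sum 6.53 ± 1.26 and 9.03 ± 1.12 CPM (1.38 times). PCDHAC1 with PCDHAC2 summed to 0.397 ± 0.100 and 6.09 ± 1.23 CPM. The groups did not overlap for any of the 3 cluster sums.

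In mRNA-seq, 3 members were higher in shDicer than in wt and 0 were lower, at an adjusted p under 0.001. They were PCDHGB5, PCDHB2 and PCDHA10, 1 from each cluster. Only 9 of the 51 members passed the filter on low counts. Over all 15090 genes tested, 15.6% were higher and 14.2% lower. At an unadjusted p under 0.05, 5 members were higher and 0 lower, and DESeq2 called 2 and 0. The median log2 fold change of the 9 tested members was 1.45, and that of all genes 0.01. A member silent in wt passed the filter only through its level in shDicer, so this median describes the tested members alone.

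PCDHGB5 was at 0, 0 and 0 CPM in wt and at 3.29, 2.27 and 2.44 CPM in shDicer. No wt sample held a count, and every shDicer sample was above the limit of detection. Against 3 counts per wt sample it was at least 9.80-fold higher (adjusted p = 1.91e-05), and it held 16.7 ± 3.61% of gamma counts in shDicer. PCDHB2 was at 0.405, 0.623 and 0.614 CPM in wt and at 2.82, 2.800 and 3.64 CPM in shDicer (log2 fold change 2.50 ± 0.31, adjusted p = 4.81e-05). The groups did not overlap, but with counts scaled from TPM by length its log2 fold change was 1.31 and did not pass (adjusted p = 0.152). PCDHA10 was at 0.973, 0.712 and 0.921 CPM in wt and at 2.35, 3.18 and 3.696 CPM in shDicer (log2 fold change 1.82 ± 0.30, adjusted p = 0.000345), also without overlap. This call was lost in 8 of 14 alternative analyses, among them DESeq2 and the fits without each of the wt samples, with log2 fold changes between 1.66 and 2.02.

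Among members that did not pass, PCDHGC3 came nearest. It was at 1.54, 0.801 and 1.54 CPM in wt and at 3.13, 4.16 and 3.34 CPM in shDicer, without overlap (log2 fold change 1.45 ± 0.29, adjusted p = 0.00136). PCDHGB6 was at 0.162, 0.178 and 0.921 CPM and 1.33, 0.681 and 1.49 CPM, with overlap (log2 fold change 1.56 ± 0.59, adjusted p = 0.0413). The members with the most counts in wt mRNA, PCDHA4 and PCDHGA11, overlapped between the groups. PCDHA4 was at 5.03, 5.69 and 3.68 CPM in wt and at 3.68, 3.33 and 3.76 CPM in shDicer (log2 fold change −0.42 ± 0.21, adjusted p = 0.101). PCDHGA11 was at 2.43, 1.96 and 2.15 CPM and 1.65, 3.03 and 2.74 CPM (log2 fold change 0.18 ± 0.28, adjusted p = 0.599). PCDHA11 and PCDHB1 overlapped as well. PCDHA11 was at 0.892, 0 and 0.205 CPM and 0.862, 0.832 and 1.43 CPM (log2 fold change 1.44 ± 0.68, adjusted p = 0.0950), and PCDHB1 at 0.730, 0.623 and 1.02 CPM and 0.862, 1.06 and 1.07 CPM (log2 fold change 0.35 ± 0.34, adjusted p = 0.401). PCDHGA8 and PCDHB13 had too few counts for the test. PCDHGA8 was at 0.405, 0.623 and 0.921 CPM and 0.548, 0.530 and 0.715 CPM, and PCDHB13 at 0.243, 0.445 and 0.205 CPM and 0.235, 0.303 and 0.656 CPM.

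**Figure D2:**
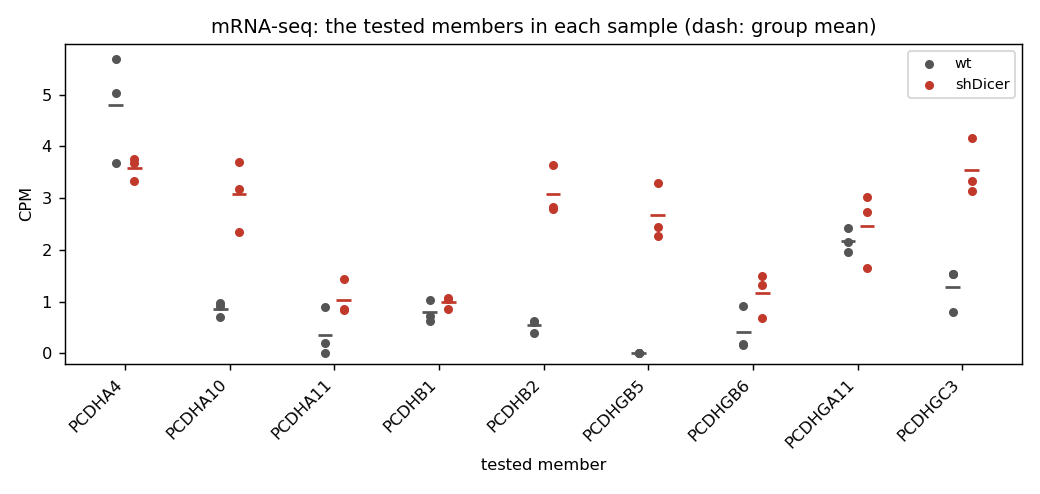
CPM of the 9 tested clustered protocadherins in each wt and shDicer mRNA-seq sample, with a dash at each group mean. PCDHGB5 was at 0 in every wt sample and between 2.27 and 3.29 CPM in shDicer, and PCDHB2, PCDHA10 and PCDHGC3 did not overlap between the groups.

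In chromatin RNA of the samples labelled shDicer, 9 of 40 tested members were higher than in wt and 0 were lower, at an adjusted p under 0.005. Over all 32874 genes tested, 11.0% were higher and 10.5% lower. All 9 were gamma members, out of 22, while 0 of 7 alpha and 0 of 11 beta members passed. At an unadjusted p under 0.05, 18 members were higher and 1 lower, and DESeq2 called 8 and 0. The median log2 fold change was 1.18 for gamma, 0.14 for alpha and 0.00 for beta members, and 0.01 for all genes.

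PCDHGB5 changed most. It was at 0.652 and 0.379 CPM in wt and at 26.4 and 24.6 CPM in shDicer (log2 fold change 5.60 ± 0.19, adjusted p = 1.69e-09), and its share of gamma counts was 0.408 ± 0.138% and 10.2 ± 1.01% (SD, n = 2). Of the 9 gamma members downstream of it, 7 were higher: PCDHGA9, PCDHGB6, PCDHGA10, PCDHGB7, PCDHGA12, PCDHGC3 and PCDHGC5. Of the 12 upstream, 1 was higher, PCDHGB1. The medians were 1.20 downstream and 0.24 upstream. This split at PCDHGB5 was chosen after the values were seen, and the difference between its sides was not tested.

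Downstream of PCDHGB5, PCDHGA10 was at 1.96 and 2.15 CPM in wt and at 14.8 and 17.4 CPM in shDicer (log2 fold change 2.97 ± 0.16, adjusted p = 9.26e-08). PCDHGA9 was at 3.26 and 2.53 CPM and 14.9 and 13.6 CPM (log2 fold change 2.29 ± 0.15, adjusted p = 3.92e-07). Neither overlapped between the groups. PCDHGA12 was at 1.84 and 2.65 CPM and 8.53 and 7.31 CPM (log2 fold change 1.82 ± 0.21, adjusted p = 3.49e-05). PCDHGB7 was at 2.67 and 2.21 CPM and 7.26 and 8.42 CPM (log2 fold change 1.68 ± 0.21, adjusted p = 5.65e-05). These were again higher in both shDicer samples than in either wt sample. PCDHGC3, the most abundant gamma member, was at 27.1 and 26.1 CPM and 53.2 and 66.2 CPM (log2 fold change 1.17 ± 0.11, adjusted p = 7.19e-06). PCDHGC5 and PCDHGB6 rose by 1.20 and 1.08 on the log2 scale (adjusted p = 1.83e-05 and 1.01e-05). PCDHGA11 and PCDHGC4 were the downstream members that did not pass. PCDHGA11 was at 14.5 and 15.6 CPM and 17.7 and 21.99 CPM (log2 fold change 0.40 ± 0.12, adjusted p = 0.0173), and PCDHGC4 at 12.4 and 14.7 CPM and 15.1 and 13.6 CPM (log2 fold change 0.09 ± 0.12, adjusted p = 0.608).

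Upstream, PCDHGB1 was at 0.296 and 0.632 CPM in wt and at 1.58 and 1.38 CPM in shDicer (log2 fold change 1.67 ± 0.35, adjusted p = 0.00246). Its call was lost with DESeq2, with the replicate number as a block, and without wt replicate 1 or either shDicer sample. PCDHGA8, the member just before PCDHGB5, was at 16.4 and 13.2 CPM and 13.4 and 15.9 CPM, with overlap (log2 fold change −0.01 ± 0.13, adjusted p = 0.946). PCDHGB4, whose window equals that of PCDHGB5, was at 1.72 and 1.26 CPM and 1.84 and 1.54 CPM, with overlap (log2 fold change 0.17 ± 0.26, adjusted p = 0.648). In shAgo2 PCDHGB4 was at 4.18 and 4.09 CPM and passed (1.46 ± 0.23, adjusted p = 0.00028). This call was lost with its top transcript only, which held 58.5% of its chrRNA-seq counts. Of the 31-base words of that transcript 61.55% also occur in transcripts of other genes.

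The alpha and beta members with the most counts in wt chromatin RNA did not pass. PCDHA4 was at 76.6 and 81.2 CPM in wt and at 86.6 and 84.02 CPM in shDicer (log2 fold change 0.11 ± 0.07, adjusted p = 0.243). PCDHA10 was at 14.8 and 14.5 CPM and 16.5 and 14.9 CPM (log2 fold change 0.10 ± 0.11, adjusted p = 0.525), and PCDHA9 at 7.95 and 8.65 CPM and 9.16 and 9.06 CPM (log2 fold change 0.14 ± 0.12, adjusted p = 0.411). Both shDicer samples of these 3 members lay above both wt samples, by differences that did not pass. PCDHB1 was at 30.7 and 28.9 CPM and 28.4 and 31.04 CPM (log2 fold change 0.00 ± 0.09, adjusted p = 0.984), PCDHB16 at 13.5 and 13.5 CPM and 13.9 and 13.1 CPM (log2 fold change 0.01 ± 0.11, adjusted p = 0.960), and PCDHB13 at 9.96 and 8.53 CPM and 9.47 and 9.06 CPM (log2 fold change 0.00 ± 0.13, adjusted p = 0.994). All 3 of these beta members overlapped between the groups. Just outside the threshold lay PCDHA12 (log2 fold change 1.49 ± 0.35, adjusted p = 0.00522), PCDHGB2 (1.29 ± 0.31, adjusted p = 0.00599) and PCDHGA4 (2.02 ± 0.49, adjusted p = 0.00649).

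**Figure D3:**
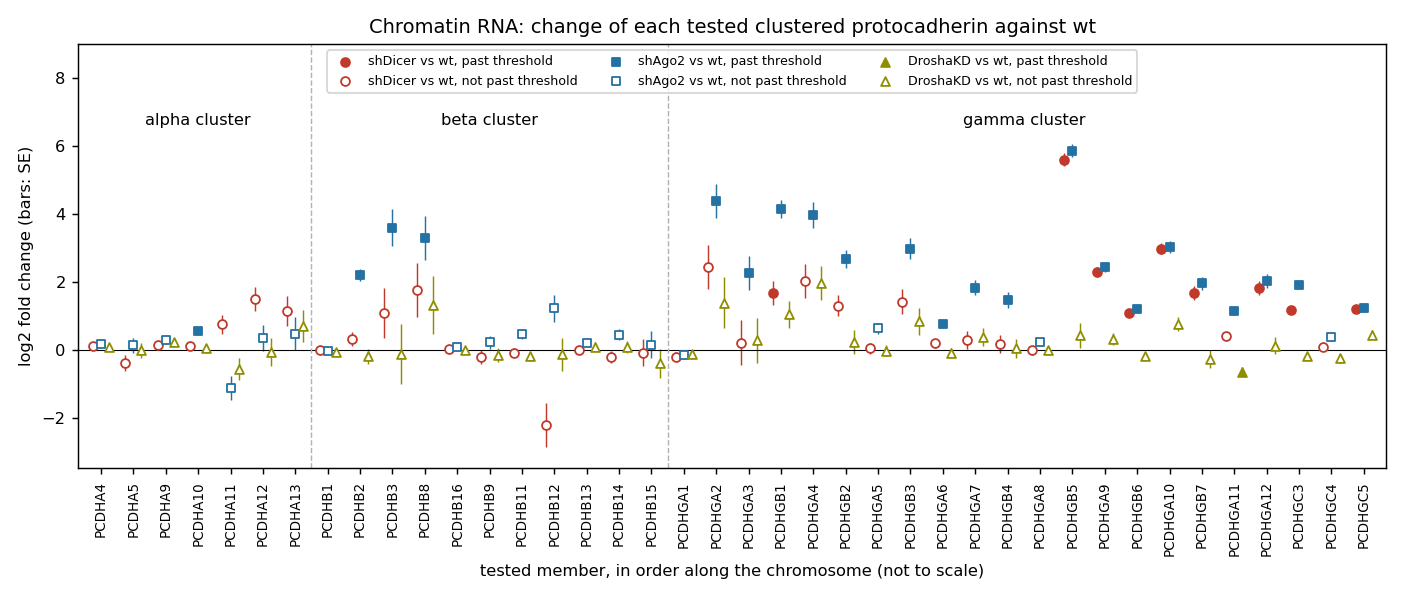
Log2 fold change against wt (± SE) in chrRNA-seq for the tested members, in order along the chromosome, for shDicer, shAgo2 and DroshaKD, with filled symbols past the threshold. PCDHGB5 stood highest, at 5.60 in shDicer and 5.86 in shAgo2, and in DroshaKD PCDHGA11, at −0.65, was the member that passed.

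In shAgo2 chromatin RNA, 22 of 40 tested members were higher than in wt and 0 were lower, while 12.5% of all 32874 genes were higher and 12.1% lower. They were 18 of 22 gamma, 3 of 11 beta and 1 of 7 alpha members. At an unadjusted p under 0.05, 28 members were higher and 1 lower, and DESeq2 called 20 and 0. The median log2 fold change was 1.92 for gamma, 0.44 for beta and 0.29 for alpha members, and 0.00 for all genes. Leaving out 1 sample at a time gave between 16 and 20 higher members, and 16 were called in each of these fits.

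The comparisons of shDicer and shAgo2 with wt share the wt samples, so their values are set side by side without a measure of likeness. PCDHGB5 was at 29.01 and 32.2 CPM in shAgo2 (log2 fold change 5.86 ± 0.19, adjusted p = 1.16e-09), and held 8.66 ± 0.359% of gamma counts (SD, n = 2). Of the gamma members upstream of it 9 of 12 were higher, with a median of 2.04, and of those downstream 8 of 9, with a median of 1.89. PCDHGA2, the second gene of the cluster, was at 0.0593 and 0.126 CPM in wt and at 2.21 and 1.86 CPM in shAgo2 (log2 fold change 4.37 ± 0.51, adjusted p = 2.92e-05). Both wt samples were under 3 counts, so the size of this fitted fold change depends on the prior count of the fit. Of the chrRNA-seq counts of PCDHGA2 57.4% were on a transcript spliced to the constant exons, whose reads are shared. On that transcript alone the call was lost (adjusted p = 0.00744, edgeR). PCDHGB1 was at 8.26 and 8.13 CPM in shAgo2 (log2 fold change 4.14 ± 0.26, adjusted p = 2.37e-07). PCDHGA4 was at 0.237 and 0.316 CPM in wt and at 4.43 and 4.37 CPM in shAgo2 (log2 fold change 3.96 ± 0.39, adjusted p = 7.86e-06). None of these members overlapped between wt and shAgo2. The call of PCDHGA3 (2.26 ± 0.50, adjusted p = 0.00342) was lost when any sample of the comparison was left out.

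The gamma members that did not pass in shAgo2 were PCDHGA1, PCDHGA5, PCDHGA8 and PCDHGC4. PCDHGA1, the first gene of the cluster, was at 8.66 and 8.72 CPM in wt and at 7.33 and 8.297 CPM in shAgo2 (log2 fold change −0.16 ± 0.13, adjusted p = 0.378). PCDHGA8 was at 17.8 and 16.9 CPM (log2 fold change 0.23 ± 0.13, adjusted p = 0.183). Among the most abundant gamma members, PCDHGC3 and PCDHGA11 did pass. PCDHGC3 was at 97.7 and 99.3 CPM (log2 fold change 1.89 ± 0.11, adjusted p = 1.15e-07), and PCDHGA11 at 32.7 and 32.9 CPM (log2 fold change 1.12 ± 0.11, adjusted p = 9.83e-06).

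In the beta cluster PCDHB2 was at 4.09 and 2.78 CPM in wt and at 14.8 and 17.03 CPM in shAgo2 (log2 fold change 2.20 ± 0.18, adjusted p = 1.74e-06). PCDHB3 was at 0.178 and 0.0632 CPM and 1.52 and 1.58 CPM (log2 fold change 3.59 ± 0.53, adjusted p = 0.000196), and PCDHB8 at 0.296 and 0 CPM and 1.67 and 1.42 CPM (log2 fold change 3.29 ± 0.65, adjusted p = 0.00163). None of the 3 overlapped. The fitted value of PCDHB8, with no count in 1 wt sample, was between 2.35 and 7.83 over the alternatives. The call of PCDHB3 was lost without wt replicate 2, and that of PCDHB8 without wt replicate 2 or either shAgo2 sample and with unmatched transcripts kept. In the alpha cluster PCDHA10 was at 21.5 and 20.9 CPM in shAgo2 (log2 fold change 0.54 ± 0.11, adjusted p = 0.00212), a call lost when any sample of the comparison was left out and with DESeq2. PCDHA4 was at 86.8 and 88.8 CPM (log2 fold change 0.16 ± 0.07, adjusted p = 0.105), and PCDHA9 at 9.98 and 10.4 CPM (log2 fold change 0.29 ± 0.12, adjusted p = 0.0652). Neither passed, and nor did the most abundant beta members. PCDHB1 was at 29.8 and 28.3 CPM (log2 fold change −0.04 ± 0.09, adjusted p = 0.788), PCDHB16 at 13.6 and 15.1 CPM (log2 fold change 0.09 ± 0.11, adjusted p = 0.551) and PCDHB13 at 10.97 and 10.2 CPM (log2 fold change 0.19 ± 0.13, adjusted p = 0.259).

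**Figure D4:**
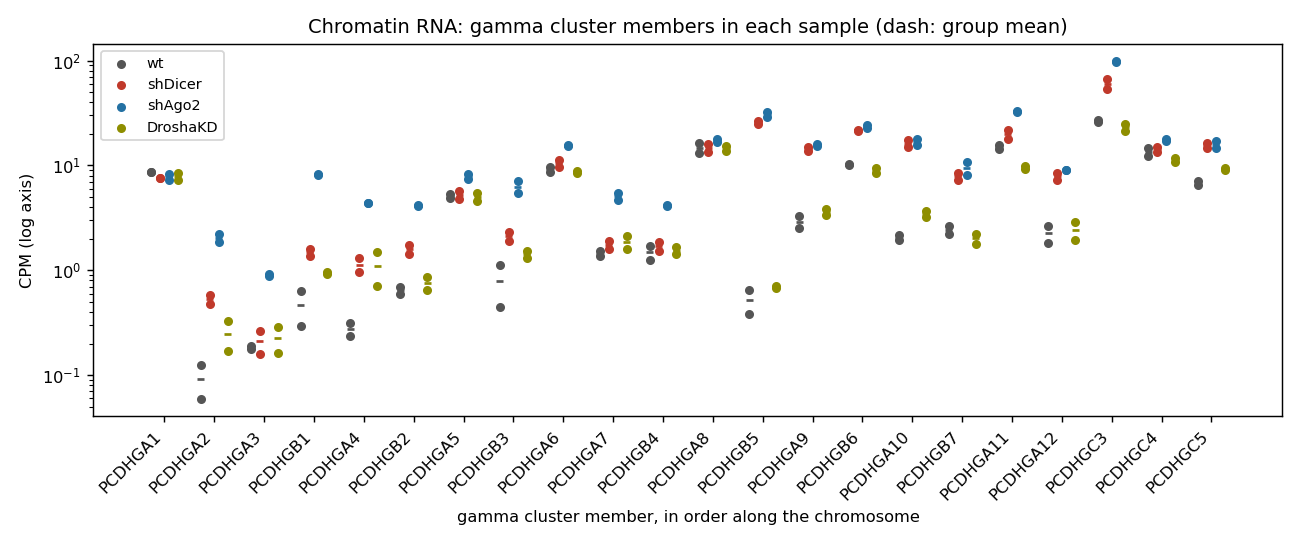
CPM of the 22 gamma members in each chrRNA-seq sample, in order along the chromosome, on a log axis, with a dash at each group mean. At PCDHGB5 the shDicer and shAgo2 samples lay between 24.6 and 32.2 CPM and the wt and DroshaKD samples between 0.379 and 0.708 CPM.

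Compared directly, shDicer was lower than shAgo2 for 12 of 40 members and higher for 1, while 1.34% of all genes were lower and 1.37% higher. Before adjustment, 23 members were lower and 2 higher at p under 0.05, and DESeq2 called 7 and 1. The lower members were 7 of the 12 gamma members upstream of PCDHGB5 (median −1.46), 2 of the 9 downstream (PCDHGA11 and PCDHGC3, median of the 9 −0.19) and 3 beta members. PCDHGB1 (log2 fold change −2.47 ± 0.20, adjusted p = 3.27e-05) and PCDHB2 (−1.88 ± 0.17, adjusted p = 5.90e-05) were lower in every fit that left out 1 sample. The number of lower members was 2 without shDicer replicate 1, 5 without shDicer replicate 2 and 2 without either shAgo2 sample.

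PCDHGB5 itself did not pass (log2 fold change −0.26 ± 0.10, adjusted p = 0.139), and nor did PCDHGA10 (−0.05 ± 0.12, adjusted p = 0.852). PCDHA11 was the member higher in shDicer. It was at 2.67 and 2.08 CPM in wt, 2.95 and 5.09 CPM in shDicer and 0.983 and 1.201 CPM in shAgo2, with no overlap between the knockdowns (log2 fold change 1.88 ± 0.31, adjusted p = 0.00313). PCDHB12 went the other way, at 0.415 and 0.632 CPM in wt, 0.0526 and 0.159 CPM in shDicer and 1.13 and 1.31 CPM in shAgo2 (log2 fold change −3.44 ± 0.54, adjusted p = 0.00223). The PCDHA11 call was lost without shDicer replicate 2 or either shAgo2 sample. PCDHB3, at 0.368 and 0.159 CPM in shDicer, and PCDHGA4, at 1.32 and 0.954 CPM, were also lower than in shAgo2 (−2.53 ± 0.44, adjusted p = 0.00408, and −1.95 ± 0.29, adjusted p = 0.00157). The calls of PCDHB12, PCDHB3 and PCDHGA4 were each lost when any sample of the comparison was left out. Of the most abundant members PCDHA4, PCDHA10, PCDHA9, PCDHB1, PCDHB16, PCDHB13 and PCDHGA8 did not pass, with differences between −0.43 and 0.03.

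In the samples labelled DroshaKD, 0 of 40 members were higher and 1 was lower than in wt at an adjusted p under 0.05. Over all genes tested, 1.19% were higher and 2.18% lower. At an unadjusted p under 0.05, 4 members were higher and 1 was lower, and DESeq2 called 0 and 1. The median log2 fold change of the members was 0.01, and that of all genes 0.00.

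The lower member, PCDHGA11, was at 14.5 and 15.6 CPM in wt and at 9.25 and 9.85 CPM in DroshaKD, without overlap (log2 fold change −0.65 ± 0.13, adjusted p = 0.0195). Its single-exon transcript had 102 and 116 estimated counts in wt and 127 and 120.3 in DroshaKD. Its longest transcript spliced to the constant exons had 130.1 and 131 counts in wt and 34.8 and 60.7 in DroshaKD. The difference lay in the estimated counts of the spliced transcript. Of its 31-base words 48.0% also occur in transcripts of other genes. A fall of this transcript and a changed division of shared reads by kallisto cannot be told apart. On the single-exon transcript alone the log2 fold change was 0.05 (adjusted p = 0.907). The call was also lost without either wt sample and without DroshaKD replicate 1. PCDHGA4, at 1.48 and 0.708 CPM in DroshaKD, came near the threshold (log2 fold change 1.96 ± 0.50, adjusted p = 0.0546). PCDHGB5 was at 0.685 and 0.708 CPM, above both wt samples and far below shDicer and shAgo2 (log2 fold change 0.42 ± 0.37, adjusted p = 0.656).

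None of the other most abundant members passed in DroshaKD. PCDHA4 was at 83.2 and 81.9 CPM (log2 fold change 0.07 ± 0.07, adjusted p = 0.676), PCDHA10 at 16.4 and 13.8 CPM (log2 fold change 0.04 ± 0.11, adjusted p = 0.890) and PCDHA9 at 9.25 and 9.96 CPM (log2 fold change 0.21 ± 0.12, adjusted p = 0.369). PCDHB1 was at 27.01 and 29.3 CPM (log2 fold change −0.08 ± 0.09, adjusted p = 0.701), PCDHB16 at 12.4 and 14.04 CPM (log2 fold change −0.02 ± 0.11, adjusted p = 0.944) and PCDHB13 at 10.5 and 9.200 CPM (log2 fold change 0.09 ± 0.13, adjusted p = 0.770). PCDHGC3 was at 24.95 and 21.5 CPM (log2 fold change −0.20 ± 0.12, adjusted p = 0.400) and PCDHGA8 at 13.9 and 15.2 CPM (log2 fold change −0.02 ± 0.13, adjusted p = 0.949).

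Against DroshaKD in place of wt, 11 of 40 members were higher in shDicer and 0 lower, while 11.0% of all genes were higher and 9.51% lower. At an unadjusted p under 0.05 the counts were 16 and 1, and DESeq2 called 9 members. The higher ones were 8 of the 9 gamma members downstream of PCDHGB5 (median 1.36), PCDHGB5 (log2 fold change 5.18 ± 0.18, adjusted p = 1.69e-09), 0 of the 12 upstream (median 0.10), and PCDHA11 and PCDHA12. PCDHGA10, at 3.197 and 3.702 CPM in DroshaKD, differed by 2.22 ± 0.15, and PCDHGA9, at 3.37 and 3.86 CPM, by 1.97 ± 0.14. PCDHGB7, at 2.23 and 1.796 CPM, differed by 1.96 ± 0.21, and PCDHGA12, at 1.94 and 2.89 CPM, by 1.71 ± 0.20. No DroshaKD sample of these members reached shDicer. PCDHA12 was at 1.74 and 2.07 CPM in shDicer and 0.571 and 0.708 CPM in DroshaKD (log2 fold change 1.56 ± 0.34, adjusted p = 0.00380), and its call was lost when any sample of the comparison was left out.

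In shAgo2, 22 members were higher than in DroshaKD and 0 lower, while 11.6% of all genes were higher and 10.3% lower. Before adjustment the counts were 27 and 0, and DESeq2 called 18 members. PCDHGB5 differed by 5.44 ± 0.17 (adjusted p = 1.24e-09), PCDHB3, at 0.114 and 0.109 CPM in DroshaKD, by 3.72 ± 0.53, and PCDHGB1, at 0.971 and 0.925 CPM, by 3.10 ± 0.22. PCDHGA2 was at 0.171 and 0.327 CPM (2.99 ± 0.41), PCDHGB2 at 0.856 and 0.653 CPM in DroshaKD and 4.18 and 4.09 CPM in shAgo2 (2.45 ± 0.25), and PCDHB2 at 3.08 and 2.94 CPM (2.40 ± 0.18). The groups did not overlap for any of these 6 members, which were chosen for the largest increases past the threshold, so this adds no support. These comparisons share the shDicer and shAgo2 samples with those against wt.

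Related genes of the clusters that the rule left out also changed. PCDHAC2, a C-type gene at the end of the alpha cluster, was at 0.162, 0.356 and 0.512 CPM in wt mRNA and at 3.92, 5.15 and 5.901 CPM in shDicer mRNA (log2 fold change 3.88 ± 0.36, adjusted p = 6.13e-06). In chromatin RNA it was at 0.949 and 1.58 CPM in wt, 10.4 and 11.02 CPM in shDicer (3.09 ± 0.21, adjusted p = 4.38e-07) and 5.704 and 5.08 CPM in shAgo2 (2.10 ± 0.22, adjusted p = 1.58e-05). PCDHAC1 did not pass in chromatin RNA of shDicer (0.62 ± 0.27, adjusted p = 0.0889) or shAgo2 (−0.27 ± 0.29, adjusted p = 0.503). Of 4 listed pseudogenes only PCDHGB8P, which lies inside the PCDHGB5 gene body, was tested, and it was higher in shDicer (1.22 ± 0.22, adjusted p = 0.00107) and shAgo2 (1.28 ± 0.22, adjusted p = 0.00064). PCDHGB9P, also inside it and chosen after its values were seen, was higher in both as well (1.18 ± 0.20, adjusted p = 0.000581, and 1.59 ± 0.19, adjusted p = 3.95e-05).

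**Figure D5:**
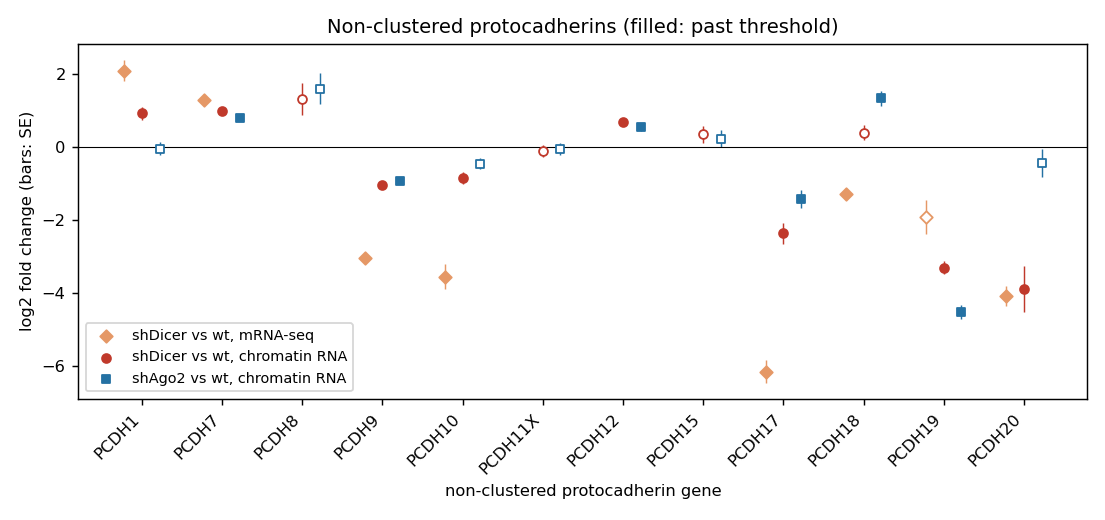
Log2 fold change (± SE) of the tested non-clustered protocadherins against wt in shDicer mRNA-seq and in shDicer and shAgo2 chrRNA-seq, with filled symbols past the threshold. PCDH17 and PCDH9 were lower and PCDH7 higher in shDicer mRNA and in shDicer and shAgo2 chromatin RNA.

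The non-clustered protocadherins are single genes, outside the 3 clusters, with a similar cadherin structure, and they changed in both directions. PCDH1 and PCDH12 among them lie within 1 Mb of the clusters and are also counted among the neighbouring genes below. In shDicer mRNA 2 of 8 tested were higher (PCDH1 and PCDH7) and 5 lower, beside 15.6% higher and 14.2% lower over all genes. PCDH17 was at 14.8, 19.03 and 23.6 CPM in wt and at 0.235, 0.151 and 0.358 CPM in shDicer (log2 fold change −6.16 ± 0.30, adjusted p = 6.75e-08). PCDH9 was lower as well (log2 fold change −3.03 ± 0.10, adjusted p = 4.21e-09). In chromatin RNA 3 of 12 were higher and 5 lower in shDicer, and 3 higher and 3 lower in shAgo2. The shares higher and lower over all genes were 11.0 and 10.5% in shDicer, 12.5 and 12.1% in shAgo2 and 1.19 and 2.18% in DroshaKD. PCDH19 was at 20.4 and 20.6 CPM in wt, 1.95 and 2.17 CPM in shDicer (−3.31 ± 0.17, adjusted p = 5.35e-08) and 1.18 and 0.546 CPM in shAgo2 (−4.53 ± 0.20, adjusted p = 1.11e-08). In DroshaKD, 0 were higher and 1 was lower, PCDH7 (−0.54 ± 0.09, adjusted p = 0.00834).

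Of 25 genes of chromosome architecture and gene silencing, such as CTCF and cohesin subunits, 2 were higher and 7 lower in shDicer mRNA (median −0.11). Over all genes 15.6% were higher and 14.2% lower there. The shares over all genes in chromatin RNA were 11.0 and 10.5% in shDicer, 12.5 and 12.1% in shAgo2 and 1.19 and 2.18% in DroshaKD. In chromatin RNA 2 were higher and 8 lower in shDicer (median −0.28), 3 higher and 6 lower in shAgo2 (median −0.10), and 1 higher and 3 lower in DroshaKD (median 0.03). CTCF was at 72.4, 70.4 and 61.00 CPM in wt mRNA and at 35.8, 40.6 and 33.4 CPM in shDicer mRNA (log2 fold change −0.90 ± 0.10, adjusted p = 2.91e-05). In chromatin RNA it was at 64.3 and 69.8 CPM in wt, 37.7 and 34.5 CPM in shDicer (−0.89 ± 0.08, adjusted p = 5.14e-06), 37.5 and 37.3 CPM in shAgo2 (−0.84 ± 0.08, adjusted p = 6.53e-06) and 47.8 and 48.3 CPM in DroshaKD (−0.48 ± 0.08, adjusted p = 0.00995). CTCF was thus lower in every comparison with wt. SMCHD1, a protein that silences protocadherin clusters, was higher in shDicer mRNA (0.58 ± 0.09) and in shDicer (0.67 ± 0.08) and shAgo2 (0.48 ± 0.08) chromatin RNA. TRIM28, a corepressor, fell in chromatin RNA of all 3 knockdowns (−1.26, −1.45 and −0.93), but did not pass in shDicer mRNA. Whether these levels bear on the protocadherins was not tested.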

How the data were processed

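Per the study's methods, RNA was sequenced as stranded libraries and quantified by the authors with kallisto on the transcripts of Ensembl release 89, and the deposited files give an estimated count and a TPM value, scaled by transcript length, for each transcript. The mRNA-seq samples are labelled as polyA RNA, while the methods describe removal of ribosomal RNA. The submitters' processing notes also name Bowtie, TopHat2, DESeq2 and the build hg38. Here transcript identifiers, without version, were matched to GENCODE release 44 (193697 of 217082, holding between 93.4 and 94.8% of the estimated counts of each sample), and estimated counts were summed per gene and rounded to whole numbers. A further 6 samples, of small RNA, were not used here.

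Counts were tested with edgeR 4.0.16 (R 4.3.3, limma 3.58.1): quasi-likelihood test, TMM normalization, filterByExpr and Benjamini-Hochberg adjustment over all genes tested. All 8 chrRNA-seq samples entered 1 fit. The thresholds on adjusted p were 0.001 for mRNA-seq, 0.05 for DroshaKD against wt and 0.005 for all other comparisons. CPM uses the total count of the tested genes of a sample, scaled by its TMM factor. The floor of 3 counts uses the total of all matched counts without that factor. DESeq2 1.42.0, other normalizations, filters, counts scaled by length, the top transcript only, a replicate block and fits without each sample were alternatives. The tests were checked on simulated data. Tables were made with python 3.11.15, numpy 2.4.6 and pandas 2.3.3.

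Values in every sample are given for the members past the threshold with the 6 largest increases and the 4 largest decreases in a comparison, and for the 3 members of each cluster with the highest mean CPM in wt. Where members were chosen as past the threshold, a lack of overlap between their groups describes the values and is no further support. The share of all genes without overlap was not counted. The members and lists were chosen with earlier results of these data known. Separate cultures are not stated, so p-values measure only the spread between these samples, which may be technical. The floor of 3 counts was 0.184 to 0.311 CPM for mRNA-seq libraries and 0.149 to 0.183 CPM for chrRNA-seq libraries.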

Additional observations from a re-analysis of the deposited data

Results flagged for a closer look

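PCDHA11 and PCDHB12 differed between shDicer and shAgo2 in chromatin RNA by the direct test, and lay on opposite sides of wt. For PCDHA11 the difference of shDicer from shAgo2 was 1.88 on the log2 scale (adjusted p = 0.00313, edgeR), with 0.75 against wt in shDicer and −1.13 in shAgo2, neither of which passed. For PCDHB12 the difference was −3.44 (adjusted p = 0.00223), with −2.23 in shDicer and 1.22 in shAgo2, and again neither passed against wt. PCDHB12 was at or under 1.31 CPM in every chrRNA-seq sample. Groups of 2 or 3 samples are too small for a check of single samples that stand apart.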

How the results depend on the processing

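Over 91 values of single members, 1074 of 1202 alternative fits kept direction and side of the threshold. Of the counts of members called, those outside 1.5 times were as follows. In mRNA-seq the 3 higher members became 5 at an adjusted p under 0.05, 6 without the filter on low counts and 1 with counts scaled from TPM by length, and were between 2 and 3 when a sample was left out. In shDicer against wt, 9 higher became 15 and 0 lower became 1 at an adjusted p under 0.05. In shAgo2 against wt, 0 lower became 1 at that threshold and in the fit of the compared groups only. In DroshaKD against wt, 0 higher became 1 without normalization beyond library size, without the filter and with the top transcript only, and was between 0 and 1 when a sample was left out. The 1 lower member became 0 at an adjusted p under 0.005, with a fold limit, with scaled counts, with unmatched transcripts kept and with the top transcript only, and was between 0 and 1 when a sample was left out. In shDicer against shAgo2, 1 higher became 2 at an adjusted p under 0.05 and 0 with scaled counts, unmatched transcripts or the block, and was between 0 and 1 when a sample was left out. The 12 lower became 7 with DESeq2 and with scaled counts, 2 with unmatched transcripts and 6 with the top transcript only and with the block, and were between 2 and 5 when a sample was left out. In shDicer against DroshaKD, 0 lower became 1 at an adjusted p under 0.05. The cause of these shifts was not tested.

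The sign turned in 39 fits. With single samples left out, the log2 fold changes that turned lay as follows. In DroshaKD against wt PCDHA10 was between −0.0884 and 0.162, PCDHB13 was between −0.0168 and 0.208, PCDHB16 was between −0.112 and 0.0621 and PCDHGA8 was between −0.168 and 0.143. In shDicer against DroshaKD PCDHA10 was between −0.0584 and 0.186, PCDHB13 was between −0.178 and 0.00728, PCDHB16 was between −0.0556 and 0.124 and PCDHGA8 was between −0.119 and 0.131. In shAgo2 against DroshaKD PCDHB1 was between −0.0184 and 0.102. In shAgo2 against wt PCDHB1 was between −0.0821 and 0.00572. In shDicer against shAgo2 PCDHB1 was between −0.0338 and 0.0972. In shDicer against wt PCDHB1 was between −0.0708 and 0.0621, PCDHB13 was between −0.108 and 0.117, PCDHB16 was between −0.0329 and 0.0504 and PCDHGA8 was between −0.163 and 0.148. With DESeq2 the opposite sign was found for PCDHB16 in shDicer against wt (−0.000487), PCDHB13 in shDicer against wt (−0.00713). With DESeq2 size factors in edgeR the opposite sign was found for PCDHB13 in shDicer against wt (−0.00102). With counts scaled from TPM by length the opposite sign was found for PCDHB1 in shDicer against wt (0.0125). With a fit of the compared groups only the opposite sign was found for PCDHB1 in shDicer against wt (0.00187). With library size only the opposite sign was found for PCDHB1 in shDicer against wt (0.0383), PCDHGA8 in shDicer against wt (0.0257), PCDHB1 in shAgo2 against wt (0.00108), PCDHB16 in DroshaKD against wt (0.0319), PCDHGA8 in DroshaKD against wt (0.0292), PCDHGA8 in shDicer against DroshaKD (−0.00348). With no filter on low counts the opposite sign was found for PCDHB13 in shDicer against wt (−0.00397). With the top transcript only the opposite sign was found for PCDHGA11 in DroshaKD against wt (0.0451). With unmatched transcripts kept the opposite sign was found for PCDHB1 in shDicer against wt (0.0146), PCDHGA8 in shDicer against wt (0.00362). Apart from PCDHGA11 in DroshaKD, these values had not passed and lay near 0.

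In mRNA-seq, samples with the same replicate number deviated together only weakly (correlations 0.0658, 0.0455 and 0.0812, each the highest for its sample). Pairs with different numbers were between −0.0931 and 0.0151. The study names no pairing, and the numbers were not treated as pairs. With the replicate number as a block, 3 members were called in mRNA-seq, 8 in shDicer, 21 in shAgo2 and 1 in DroshaKD against wt, 10 in shDicer and 23 in shAgo2 against DroshaKD, and 6 in shDicer against shAgo2. In shDicer and DroshaKD same-numbered samples deviated in opposite directions (−0.131), and with the DroshaKD numbers crossed, a choice made after seeing the data, 11 members were called in that comparison. In mRNA-seq only 9 of 51 members had enough counts to be tested, and low depth and low expression cannot be told apart there.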

Other observations

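Of 16 genes that process protocadherin proteins or carry their signals, all tested, 2 were higher in shDicer mRNA (CYFIP1 and PSENEN) and 4 lower (CTNNB1, PTK2, RAC1 and WASF1) (median log2 fold change −0.03), beside 15.6% higher and 14.2% lower over all genes. In chromatin RNA 0 were higher and 5 lower in shDicer, 0 higher and 3 lower in shAgo2, and 0 higher and 1 lower in DroshaKD. Over all genes the shares higher and lower were 11.0 and 10.5% in shDicer, 12.5 and 12.1% in shAgo2 and 1.19 and 2.18% in DroshaKD. RET, a receptor tyrosine kinase known to associate with protocadherins, was at 17.7 and 15.2 CPM in wt chromatin RNA, 3.105 and 3.81 CPM in shDicer (log2 fold change −2.25 ± 0.15, adjusted p = 3.98e-07) and 2.16 and 1.97 CPM in shAgo2 (−2.99 ± 0.16, adjusted p = 6.58e-08). It did not pass in DroshaKD (−0.29 ± 0.12, adjusted p = 0.226).

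Of the 38 other protein-coding genes within 1 Mb of the outermost members, 37 were tested in chromatin RNA and 29 in mRNA-seq. They include PCDH1 and PCDH12, which are also counted among the non-clustered protocadherins above. In shDicer mRNA 3 were higher and 3 lower, beside 15.6% higher and 14.2% lower over all genes. In chromatin RNA 6 were higher and 1 lower in shDicer (median 0.19), 6 higher and 3 lower in shAgo2 (median 0.12), and 1 higher and 2 lower in DroshaKD (median −0.04). The shares higher and lower over all genes were 11.0 and 10.5% in shDicer, 12.5 and 12.1% in shAgo2 and 1.19 and 2.18% in DroshaKD. ARAP3, a regulator of small GTPases, was at 9.78 and 8.72 CPM in wt, 34.3 and 32.5 CPM in shDicer (log2 fold change 1.85 ± 0.10, adjusted p = 8.82e-08), 27.8 and 26.5 CPM in shAgo2 (1.55 ± 0.10, adjusted p = 3.40e-07) and 12.9 and 12.7 CPM in DroshaKD (0.47 ± 0.11, adjusted p = 0.0422). NRG2, a growth factor gene, was higher in shDicer (1.27 ± 0.11, adjusted p = 3.38e-06) and shAgo2 (1.11 ± 0.11, adjusted p = 8.56e-06).

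In chromatin RNA the 5 leukocyte markers summed to between 10.02 and 10.5 CPM in wt and DroshaKD and to between 3.26 and 4.53 CPM in shDicer and shAgo2, with CD3E under 3 counts in every sample. In mRNA-seq the leukocyte sum was at most 1.02 CPM and the fibroblast sum at most 2.76 CPM. Their part in the changes of the protocadherins was not tested.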
